A study of Mus musculus with 4 samples.

Results

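The genes described here are 40 mouse genes of the interferon response and of MHC class I antigen presentation, measured by oligonucleotide array in aortic RNA after chronic rosiglitazone or vehicle. They were chosen by name, from what interferon and class I genes are known to do, with earlier results of these data known. A gene counted as measured when at least 1 probe set of the array carried its symbol and no other in the platform's probe table. This held for 35 of the 40 genes, on 48 probe sets, among 8251 genes measured in all. Psme2 and Tgtp1 had probe sets only in common with other gene symbols, and Stat2, Irf2 and Bst2 are not analysed here. Each gene is summarised on its probe set with the highest mean log2 intensity.

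The samples were 4 arrays of pooled aortic RNA from adult male mice of the C57BL/6J strain. In 2 arrays, numbered 1 and 2, the mice had received rosiglitazone, which activates the nuclear receptor PPARγ, for 21 days at a daily 25 mg/kg. In the other 2, numbered 3 and 4, they had received vehicle for 21 days. Nothing in the labels tells whether both arrays of a group hold different pools, and p-values therefore reflect a spread that may be technical only. The comparison asked which aortic transcripts differ after chronic treatment, here for the interferon system.

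Values are deposited intensities on a linear scale, and intensities under 148 were set to that floor before log2 was taken. A probe set was tested when its mean log2 intensity reached that of an intensity of 414; 28 member genes were bright enough and 7 were too dim. Median intensities of whole arrays ran from 591 to 648. Smooth muscle markers, which define the tissue, were all bright enough to test, with summed intensities of 52943 and 58321 with rosiglitazone against 111684 and 134147 with vehicle. Of these 7 markers 6 were lower on both rosiglitazone arrays, where 21% of all genes were, and Des overlapped. Only Tagln had an adjusted p under 0.05 in limma, at 0.0455. Brown adipocyte markers had summed intensities from 291284 to 449952, higher with rosiglitazone, with Cidea the largest term. Of the 8 markers 5 were higher on both rosiglitazone arrays, where 18% of all genes were. Dio2 was lower on both, where 21% of all genes were, and 2 overlapped between the groups. Only Fabp3, of 7 tested, had an adjusted p under 0.05 in limma, at 0.024. Elovl3 lay under the floor on 1 vehicle array. In such bulk RNA, fewer cells of a type and less RNA per cell cannot be told apart.

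Interferons are secreted proteins that warn cells of infection. Type I interferons and interferon gamma bind separate receptors, and Janus kinases there pass the signal on to transcription factors. A complex that contains IRF9 binds the interferon-stimulated response element (ISRE), and genes induced by interferon gamma often carry a gamma-activated site (GAS). The induced genes encode antiviral proteins, GTPases that attack intracellular microbes, and the machinery that cuts cytosolic proteins, carries the peptides into the endoplasmic reticulum and loads them on class I molecules. In the vessel wall, endothelial cells, smooth muscle cells and macrophages can all respond.

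Promoter sequence was looked up to show which members carry these elements close to the transcription start. The windows, from RefSeq on build GRCm38.p6, run from 250 bases before the start to 50 after it, and 34 of the 40 genes had at least 1. The ISRE core was searched as GAAA, any 2 bases and GAAA again, and on the other strand as TTTC, any 2 bases and TTTC, and the GAS core as TTCNNNGAA, which reads the same on both strands. An ISRE core was found for 17 of the 34 genes, against 3.99% of 27025 genes with a window, and a GAS core for 12 of 34, against 9.55%. The 6 windows below belong to the 3 tested members with the smallest p (Irf9, Ifi35, Ifitm3), to 2 members that were higher on both rosiglitazone arrays (Psme1, Socs1), and to the class I light chain B2m, whose groups overlapped. Matched letters are in capitals.
Irf9 promoter (chr14:55603735-55604034, plus strand): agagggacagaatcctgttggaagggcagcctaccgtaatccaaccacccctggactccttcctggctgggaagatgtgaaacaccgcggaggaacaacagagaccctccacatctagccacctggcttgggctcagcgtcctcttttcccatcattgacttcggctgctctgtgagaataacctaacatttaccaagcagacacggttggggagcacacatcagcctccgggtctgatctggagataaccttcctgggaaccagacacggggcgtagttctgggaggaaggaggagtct
Ifi35 promoter (chr11:101448162-101448461, plus strand): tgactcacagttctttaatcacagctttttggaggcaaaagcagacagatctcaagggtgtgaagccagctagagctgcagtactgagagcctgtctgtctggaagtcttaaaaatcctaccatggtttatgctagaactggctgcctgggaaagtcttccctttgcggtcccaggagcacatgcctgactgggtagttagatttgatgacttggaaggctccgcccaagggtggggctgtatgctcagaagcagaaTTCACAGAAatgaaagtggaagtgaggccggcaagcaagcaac
Ifitm3 promoter (chr7:141010695-141010994, minus strand): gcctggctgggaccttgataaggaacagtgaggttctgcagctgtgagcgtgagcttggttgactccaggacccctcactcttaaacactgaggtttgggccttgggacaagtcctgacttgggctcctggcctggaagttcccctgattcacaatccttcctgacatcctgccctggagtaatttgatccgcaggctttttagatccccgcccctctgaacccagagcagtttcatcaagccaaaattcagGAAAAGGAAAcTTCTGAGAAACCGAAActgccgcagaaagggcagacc
Psme1 promoter (chr14:55578244-55578543, plus strand): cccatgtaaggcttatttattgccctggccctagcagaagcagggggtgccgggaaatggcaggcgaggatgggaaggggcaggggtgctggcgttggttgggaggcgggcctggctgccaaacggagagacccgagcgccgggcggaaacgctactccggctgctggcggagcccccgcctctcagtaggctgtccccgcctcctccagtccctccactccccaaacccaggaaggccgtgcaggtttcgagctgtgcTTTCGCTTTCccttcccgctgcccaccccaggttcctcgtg
Socs1 promoter (chr16:10785487-10785786, minus strand): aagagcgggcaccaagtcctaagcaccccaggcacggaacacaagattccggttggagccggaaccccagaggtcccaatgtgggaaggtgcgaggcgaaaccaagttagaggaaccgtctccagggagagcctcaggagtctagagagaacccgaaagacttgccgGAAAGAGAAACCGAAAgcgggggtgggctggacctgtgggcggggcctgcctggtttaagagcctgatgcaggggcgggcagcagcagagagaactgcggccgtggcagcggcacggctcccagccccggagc
B2m promoter (chr2:122147437-122147736, plus strand): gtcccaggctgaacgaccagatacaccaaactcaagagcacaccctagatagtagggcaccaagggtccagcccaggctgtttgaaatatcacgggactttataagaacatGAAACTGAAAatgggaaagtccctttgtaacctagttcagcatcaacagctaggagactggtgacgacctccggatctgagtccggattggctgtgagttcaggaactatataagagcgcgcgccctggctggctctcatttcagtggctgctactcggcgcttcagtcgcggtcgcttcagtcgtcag

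With the first transcribed base counted as 0, the Ifi35 capitals are a GAS core at bases 7 to 15. Ifitm3 had 2 ISRE cores, at bases 2 to 11 and 19 to 28, and a GAS core at bases 13 to 21 that overlaps the second of them. The Psme1 ISRE core lies at bases 9 to 18, in the reverse orientation. In Socs1, 2 overlapping ISRE cores run from 83 to 68 bases before the start. The B2m core runs from 139 to 130 bases before it. RefSeq lists 2 starts for Irf9, the upstream one printed here, and neither window held a match. An ISRE core therefore stood in the promoters of genes that were lower, higher and overlapping between the groups. The 13 measured members with an ISRE core had a median log2 fold change of -0.09, 8 below 0 and 5 above, and the 16 with a window but none had -0.05, with 10 below and 6 above. Of the 9 with a GAS core 8 lay below 0, at a median of -0.36, and of the 20 without one 10 lay below. Among all genes 50% lay below 0, and the 559 measured genes with a GAS core had a median of -0.023. Of the 8 members, Adar, Ifit2, Igtp and Psmb8 did not keep their sign under all alternative ways of processing. These are descriptions, with no test.

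No tested interferon or class I gene passed the threshold between rosiglitazone and vehicle. Of the 28 tested members 0 had an adjusted p under 0.05 in limma, where 0.384% of 5466 genes passed (0.0549% higher and 0.329% lower), and the smallest adjusted p was 0.255, for Ifi35. Of their 35 tested probe sets 0 passed as well, against 0.364% of all probe sets tested. At an unadjusted p under 0.05 there were 3 members, Ifi35, Irf9 and Ifitm3, all lower with rosiglitazone; that is 10.7% of those tested, against 11% of all genes (5.03% higher and 5.93% lower), a share at the background. The median log2 fold change over the 35 measured members was -0.09, from -1.76 to 1.11, against -0.0017 over all genes measured. Below 0 lay 22 members, or 62.9%, against 50% of all genes. With each array centred on its median the count was 18 of the 35. Centring moved the background too, to a median of 0.081 over all genes, beside -0.0044 for the members. A difference of over 1.5-fold in either direction was seen for 14 members, where 31.9% of all genes had one. Groups did not overlap for 17 members, 48.6% against 39% of all genes. Of these 11 were lower with rosiglitazone, 31.4% against a background of 21%, and 6 were higher, 17.1% against 18%. The precision was modest: among tested members the 95% interval of the log2 fold change reached a median of 0.82 to either side, or 1.77-fold.

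**Figure D1:**
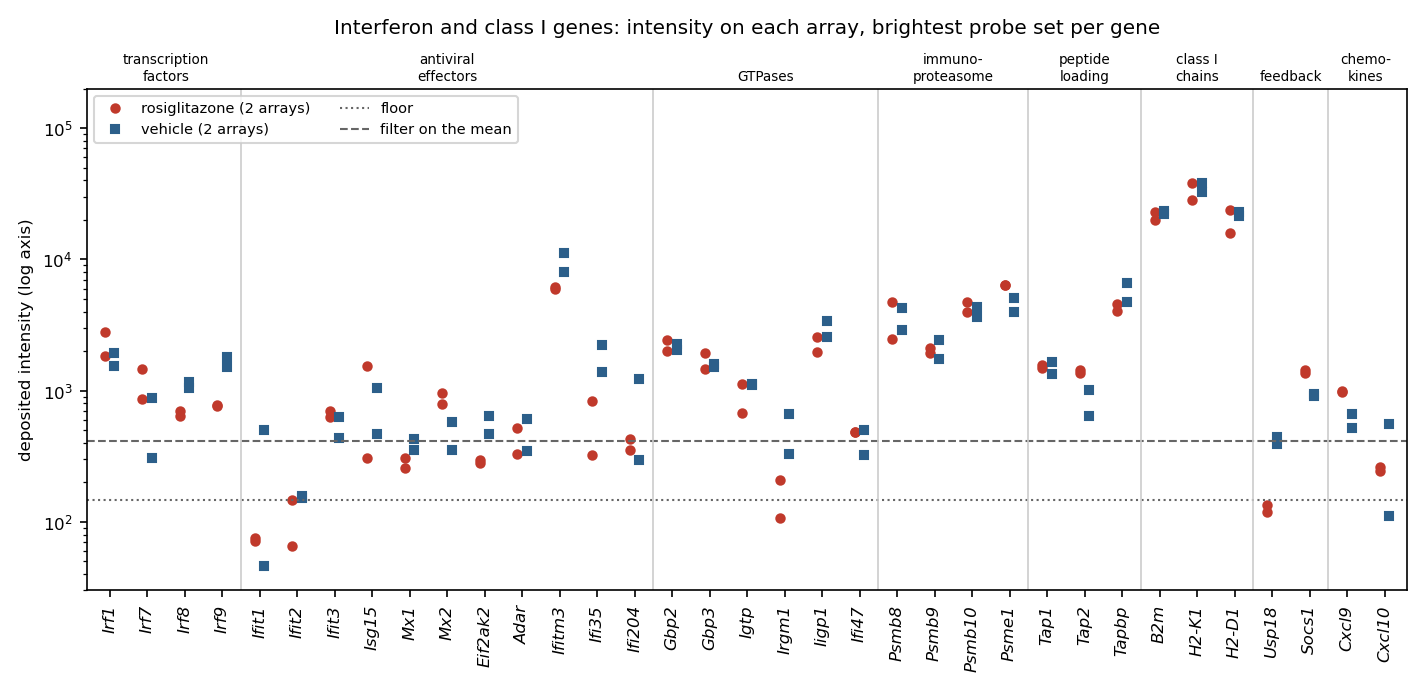
Deposited intensity (log axis) of the 35 measured genes on each array at the brightest probe set, in groups by role; circles are the 2 rosiglitazone arrays and squares the 2 vehicle arrays. Irf9, Irf8, Ifitm3, Ifi35 and Usp18 lie lower on both rosiglitazone arrays, whereas Psmb8, Psmb9, Psmb10, B2m, H2-K1 and H2-D1 overlap; the dotted line is the floor of 148 and the dashed line the filter at 414.

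Among the transcription factors of the pathway, 2 of 4 measured were lower with rosiglitazone with no overlap, where 21% of all genes were, and 2 overlapped. Irf9, a DNA-binding subunit of the factor that type I interferon activates, had intensities of 783 and 769 with rosiglitazone against 1520 and 1789 with vehicle. Both rosiglitazone arrays thus lay at about the same level, below either vehicle array. The difference was 2.13-fold (log2 fold change -1.09, 95% interval from -1.95 to -0.22), with an unadjusted p of 0.019 and an adjusted p of 0.338 in limma. With 1 array left out it ran from -1.21 to -0.97. Irf8, a factor of macrophages, dendritic cells and B cells, had 639 and 705 with rosiglitazone against 1050 and 1167 with vehicle (log2 fold change -0.72, limma adjusted p = 0.608). Its groups were separate as well, although the interval, from -1.73 to 0.29, included 0.

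Irf1, which is induced by interferon gamma and activates class I and immunoproteasome genes, had 2786 and 1822 with rosiglitazone against 1539 and 1922 with vehicle. The groups overlapped, and the log2 fold change was 0.39 (interval from -0.37 to 1.15). Irf7, the factor that amplifies type I interferon production, had 864 and 1463 against 881 and 308. Its log2 fold change of 1.11 was the highest of the members, yet the rosiglitazone array at 864 lay below a vehicle array. The other Irf7 probe set, too dim to test, had -0.07, and the brighter one is of a type shared by a sequence family, so the probe sets of this gene disagreed.

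Log2 fold changes were below 0 for 9 of the 11 measured antiviral effectors, where 50% of all genes were. Of the 9, Adar, Ifi204, Ifit1, Ifit2 and Isg15 did not keep their sign under all alternative ways of processing. The median of the 11 was -0.47. Without vehicle replicate 4 it was -0.094, and with the floor at the 40th percentile it was -0.12. Ifi35, a leucine-zipper protein induced by interferon, had 326 and 831 with rosiglitazone against 2214 and 1397 with vehicle. The lowest vehicle array was above the highest rosiglitazone array, but arrays of each group were far apart. The difference was 3.38-fold (log2 fold change -1.76, interval from -2.99 to -0.53, unadjusted p = 0.0103 in limma). It varied with the rosiglitazone arrays, at -1.08 without replicate 1 and -2.43 without replicate 2, and in the latter the adjusted p was 0.061. Ifitm3, a membrane protein that blocks virus entry, had 5901 and 6132 with rosiglitazone against 8040 and 11111 with vehicle. Here the rosiglitazone arrays were close together and both vehicle arrays higher, by 1.57-fold (log2 fold change -0.65, interval from -1.18 to -0.12, limma adjusted p = 0.352).

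The other effectors gave no single picture. Isg15, the ubiquitin-like modifier, had 309 and 1541 with rosiglitazone against 467 and 1054 with vehicle, so that arrays of a group differed far more than the groups did. Its log2 fold change was -0.024, and it turned positive, at 0.059 and 0.092, with each array centred on its median and with quantile normalization. The median of all genes was 0.081 with that centring, above Isg15, and 0 with quantile normalization. Mx2, a dynamin-like GTPase, was higher on both rosiglitazone arrays, at 967 and 789 against 352 and 579 (log2 fold change 0.95, interval from -0.37 to 2.27). Its neighbour Mx1 had 256 and 304 against 425 and 352, lower with no overlap but too dim to test. Common inbred strains, C57BL/6J among them, carry Mx alleles that make no working protein.

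Ifit3, which binds foreign RNA together with its relatives, had 627 and 698 with rosiglitazone against 433 and 625 with vehicle, so that the groups nearly touched. Ifit1 and Ifit2 lay under the floor on both rosiglitazone arrays. With vehicle, Ifit1 had 497 and 46 and Ifit2 had 158 and 153, so that Ifit1 was above the floor on 1 vehicle array alone. With each array centred on its median Ifit2 lay above 0, though below the 0.081 that was then the median of all genes. Eif2ak2, the RNA-activated kinase PKR that halts translation, had 283 and 297 with rosiglitazone against 464 and 645 with vehicle. It was lower on both rosiglitazone arrays by 1.89-fold, but too dim to test. Adar, the RNA-editing enzyme, overlapped at a log2 fold change of -0.16, as did Ifi204, a DNA-binding protein of the p200 family, at -0.64. Both, like the GTPase Ifi47, reached the filter with only 1 group's mean above it. Without vehicle replicate 4 this Ifi204 probe set was at 0.38. The other Ifi204 probe sets, too dim to test, were lower with no overlap, at -1.53 and -0.64.

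The interferon-inducible GTPases, which coat the vacuoles of intracellular microbes, had a median log2 fold change of -0.16 over 6 measured genes, 3 on each side of 0. Gbp2 had 2021 and 2412 with rosiglitazone against 2025 and 2285 with vehicle, and its log2 fold change was 0.038 (interval from -0.62 to 0.70). Gbp3 was at 0.11 and Ifi47 at 0.28, both with overlap. Igtp had 1116 and 670 against 1097 and 1124, at -0.36. Iigp1 was lower on both rosiglitazone arrays, at 2560 and 1975 against 2576 and 3371 with the nearest arrays almost equal (log2 fold change -0.39, limma adjusted p = 0.691). The other Iigp1 probe set overlapped, at -0.54. Irgm1, which holds the other GTPases of the family in check, had 107 and 208 with rosiglitazone against 669 and 328 with vehicle. It was too dim to test, and with 1 rosiglitazone array under the floor its log2 fold change of -1.42 is pulled toward 0 (-0.35 with the floor at the 40th percentile).

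The immunoproteasome is the form of the protein-cutting complex that interferon gamma induces, and its 3 measured catalytic subunits overlapped between the groups. Its catalytic subunits Psmb8, Psmb9 and Psmb10 had log2 fold changes of -0.025, -0.035 and 0.13. Psmb8 had 4752 and 2495 with rosiglitazone against 4267 and 2875 with vehicle; Psmb9 had 1920 and 2098 against 2422 and 1745. Psmb10 had 3999 and 4744 against 4365 and 3613. All 3 overlapped, with intervals from -0.82 to 0.77, from -0.74 to 0.67 and from -0.43 to 0.70, so that a rise of 1.5-fold is within each interval. With each array centred on its median Psmb8 and Psmb9 lay above 0, though below the median of all genes, which was then 0.081. Psme1, the alpha subunit of the activator that opens the proteasome, was higher on both rosiglitazone arrays, at 6378 and 6402 against 5082 and 3949. The difference was 1.43-fold (log2 fold change 0.51, interval from -0.021 to 1.05, limma adjusted p = 0.476). The subunits that the immunoproteasome replaces, Psmb5, Psmb6 and Psmb7, were at 0.27, 0.19 and 0.08, and none of the 4 constitutive counterparts tested (0) passed. The other Psmb5 probe set was at -0.031, with overlap.

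The peptide transporter and its docking protein went different ways. Tap1 had 1571 and 1487 with rosiglitazone against 1350 and 1665 with vehicle, a log2 fold change of 0.028 (interval from -0.73 to 0.79). Tap2, the partner with which Tap1 forms the transporter, had 1437 and 1374 against 1006 and 638. It was higher on both rosiglitazone arrays by 1.75-fold (log2 fold change 0.81, interval from -0.14 to 1.76, limma adjusted p = 0.541). Tapbp, tapasin, which bridges the transporter and empty class I molecules, had 4072 and 4595 against 4756 and 6579. It was lower with no overlap (log2 fold change -0.37, limma adjusted p = 0.643), but both other Tapbp probe sets overlapped, at -0.20 and -0.38.

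The class I molecules themselves overlapped between the groups, with intervals narrower than the median of the members. B2m, beta-2 microglobulin, the light chain that all class I molecules need, had 22848 and 19892 with rosiglitazone against 23241 and 22133 with vehicle. The vehicle array at 22133 lay below a rosiglitazone array, and the log2 fold change of -0.09 had an interval from -0.53 to 0.35 (limma, adjusted p = 0.908). H2-K1, a classical heavy chain, had 28504 and 38415 against 32427 and 38098. H2-D1, the other one measured, had 15861 and 23866 against 21233 and 23123. In both genes rosiglitazone replicate 1 was the lowest array and replicate 2 the highest, so the groups overlapped. Their log2 fold changes were -0.09 and -0.19, with intervals from -0.59 to 0.41 and from -0.72 to 0.35. A fall below 0.606-fold for H2-D1 or a rise above 1.33-fold for H2-K1 lies outside these intervals. The median of the 3 chains moved both ways with the processing. It was -0.0067 with each array centred on its median, where all genes had 0.081, and 0.11 without rosiglitazone replicate 1. Further below 0, it was -0.30 without rosiglitazone replicate 2, -0.20 without vehicle replicate 3 and -0.19 with quantile normalization. The brightest probe sets of both heavy chains are of a type marked as shared by a sequence family, and class I genes are alike enough that signal from one can reach the probes of another. A second H2-D1 probe set was lower with no overlap, at 10343 and 12639 against 13015 and 14776 (log2 fold change -0.28, limma adjusted p = 0.69).

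**Figure D2:**
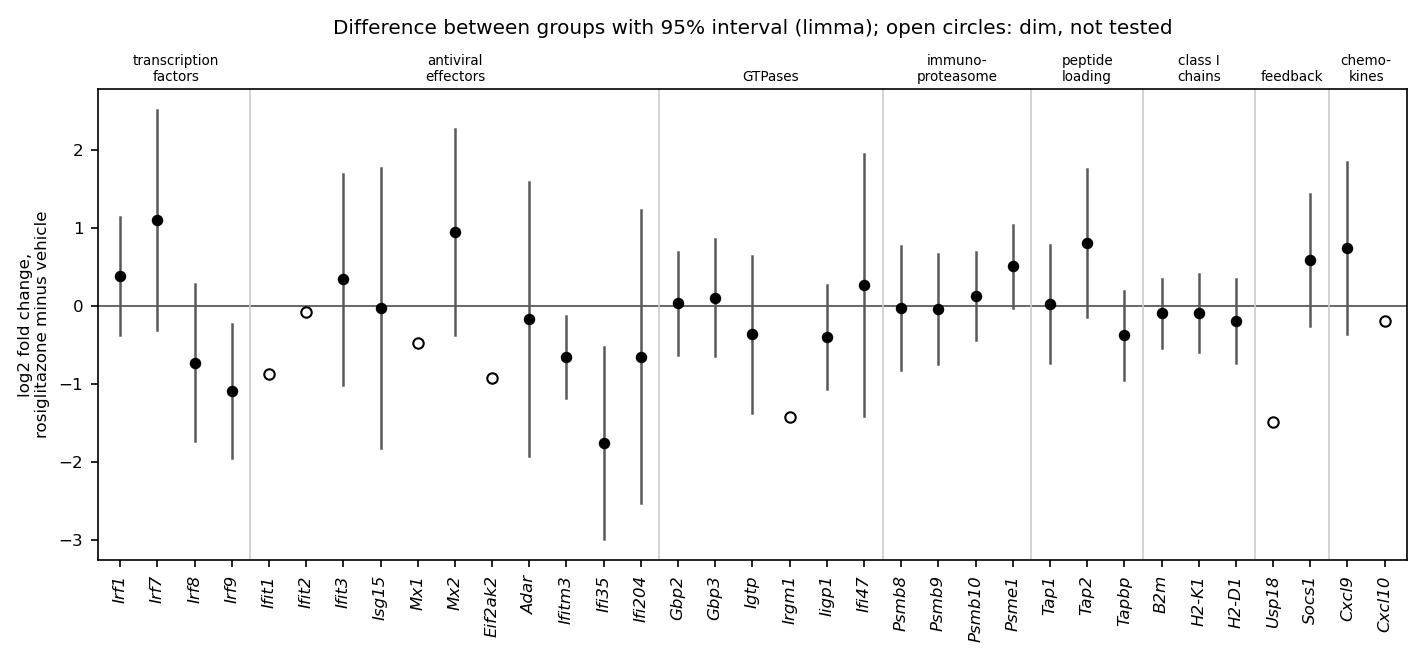
Log2 fold change (rosiglitazone minus vehicle) for the 35 measured genes by role, with the 95% interval from limma as a bar; open circles are the 7 dim genes that were not tested and have no interval. Only the intervals of Irf9, Ifitm3 and Ifi35 exclude 0 before adjustment, and those of B2m, H2-K1 and H2-D1 lie between -0.72 and 0.41.

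The feedback inhibitors of the pathway were separate between the groups in opposite directions. Usp18, which removes Isg15 from proteins and blocks the type I receptor, had 118 and 135 with rosiglitazone against 440 and 393 with vehicle. Both rosiglitazone arrays lay under the floor, so Usp18 was at least 2.81-fold lower. It was too dim for the filter; without the filter the unadjusted p was 0.00211 and the adjusted p 0.284 in limma, with a rosiglitazone SD of 0 set by the floor. With the floor at the 40th percentile its log2 fold change was -0.044. Socs1, which inhibits Janus kinases, had 1429 and 1371 with rosiglitazone against 918 and 937 with vehicle. Arrays of a group nearly coincided and Socs1 was 1.51-fold higher (log2 fold change 0.59, limma adjusted p = 0.62). Limma shares the spread across probe sets of like intensity, so its interval for Socs1, from -0.26 to 1.45, is wider than these 4 values alone would give.

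The chemokines Cxcl9 and Cxcl10 draw activated T cells through the same receptor. Cxcl9, a target of interferon gamma, had 996 and 978 with rosiglitazone against 522 and 665 with vehicle. It was higher on both rosiglitazone arrays by 1.68-fold (log2 fold change 0.74, interval from -0.36 to 1.85, limma adjusted p = 0.627). Cxcl10 had 243 and 261 against 559 and 111, overlapped and was too dim to test. Of all 7 dim members, 5 were lower with rosiglitazone with no overlap (Usp18, Irgm1, Eif2ak2, Mx1 and Ifit2) and 0 were higher; among 2785 dim genes 19% were lower and 15.9% higher.

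**Figure D3:**
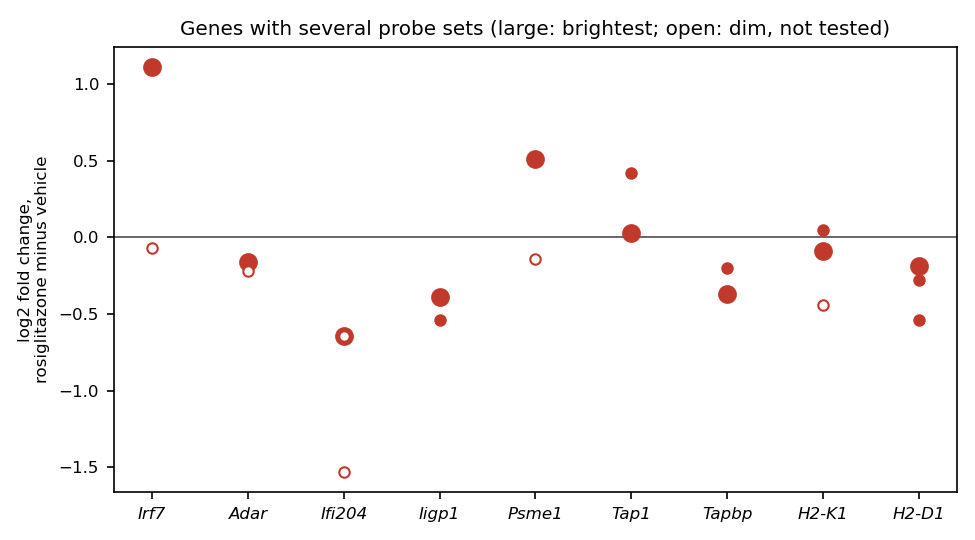
Log2 fold change (rosiglitazone minus vehicle) of every probe set of the 9 member genes that have several; large circles are the brightest probe set and open circles were too dim to test. Irf7, Psme1 and H2-K1 have probe sets on both sides of 0, whereas all those of Adar, Ifi204, Iigp1, Tapbp and H2-D1 lie below it.

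Genes that send and receive the signal overlapped for 11 of 16 measured, and 39% of all genes did not overlap, against 31.2% of these. These came from a list of 21 further ligands, receptors, kinases, factors and sensors, of which 11 were tested and 0 passed in limma, with 0 at an unadjusted p under 0.05. Ifng, interferon gamma, was under the floor on all 4 arrays. Ifnb1, a type I interferon, had 552 and 662 with rosiglitazone against 526 and 112 with vehicle; it was higher with no overlap but too dim to test. The type I receptor chain Ifnar2 (log2 fold change 0.34) and the kinase Jak1 (0.37) were higher with no overlap, and Irf3 (-0.50), the factor that starts interferon production, was lower. The other probe sets of Ifnar2 and Irf3 overlapped, at 0.55 and -0.61, that of Irf3 too dim to test. Ptpn6, a phosphatase of blood cells that restrains Janus kinases, had 95 and 198 against 642 and 543 and was too dim to test.

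Of 38 other interferon-induced genes 21 were measured and 15 tested, with 0 past the threshold in limma. At an unadjusted p under 0.05 were 2 of the 15, both lower, where 11% of all genes were (5.93% lower). The median was -0.14. With no overlap 8 of the 21 were lower, where 21% of all genes were, and 3 higher, where 18% were. Rsad2, viperin, an antiviral enzyme, had 1023 and 1045 with rosiglitazone against 1543 and 2720 with vehicle. The difference was 1.98-fold (log2 fold change -0.99, limma adjusted p = 0.386). Ifi30, a lysosomal thiol reductase of antigen-presenting cells, had 148 and 654 against 1424 and 979 (log2 fold change -1.92, limma adjusted p = 0.408). Ifi30 reached the filter with only 1 group's mean above it. Samhd1, which depletes nucleotides, and Lgals3bp, a secreted glycoprotein, lay lower with no overlap at -0.75 and -0.82 (limma adjusted p of 0.49 and 0.476). The other Samhd1 probe set, too dim to test, overlapped at 0.50, so the probe sets of Samhd1 disagreed. Daxx, a histone chaperone, lay higher at 0.66 (limma adjusted p = 0.623). Of 20 further class I and loading genes 11 were measured, 8 were tested and 0 passed or had an unadjusted p under 0.05. H2-Q4, a nonclassical class I chain, was lower with no overlap at 2863 and 2804 against 4207 and 3665 (log2 fold change -0.47, limma adjusted p = 0.551), and Cd1d1, which presents lipids, was higher at 0.18.

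**Figure D4:**
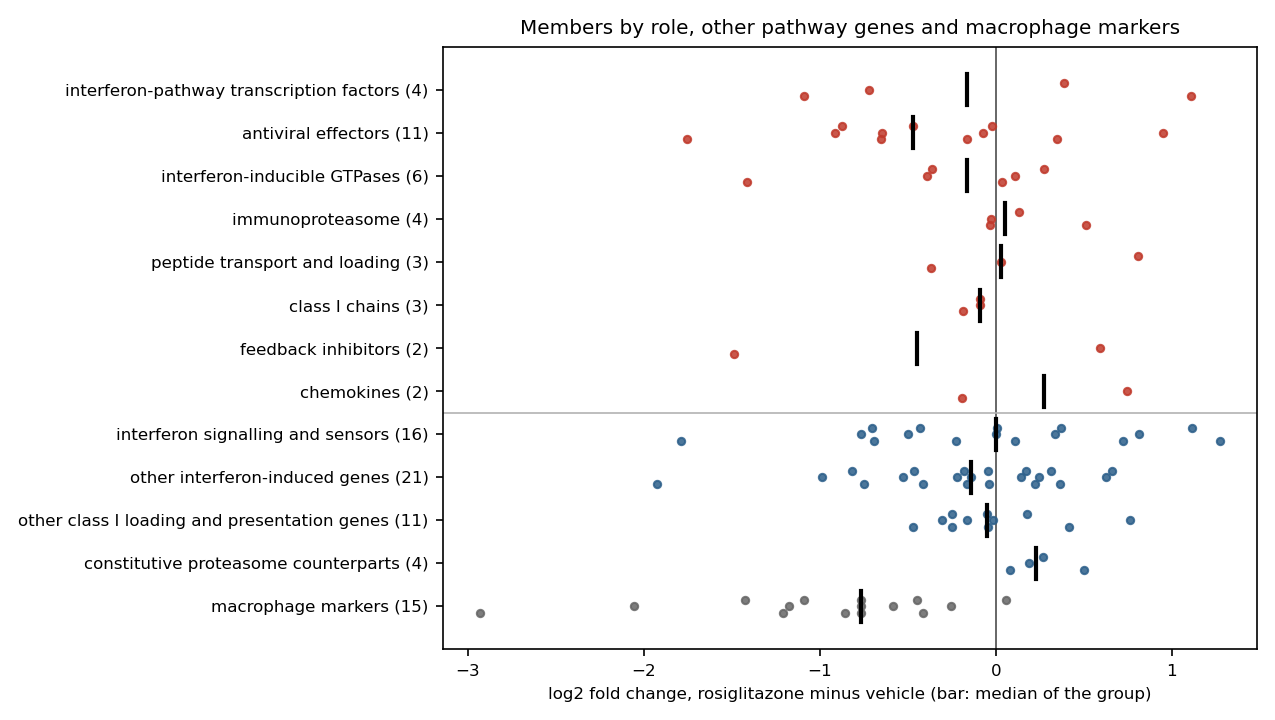
Log2 fold change (rosiglitazone minus vehicle) of every measured gene, with members by role above the line and other pathway genes and macrophage markers under it; each point is a gene, black bars are medians and the number of genes is in brackets. Member groups sit on both sides of 0, with medians from -0.47 for antiviral effectors to 0.28 for chemokines, while the 15 macrophage markers have a median of -0.77.

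Markers of blood cells were measured on the same arrays. Macrophage markers lay below 0 for 14 of 15 measured, where 50% of all genes did. Of 13 tested 1 passed in limma, where 0.384% of genes did. It was Cd14, at 3496 and 3642 with rosiglitazone against 27529 and 26830 with vehicle. The intensities of the macrophage markers summed to 33252 and 30720 with rosiglitazone against 75764 and 80481 with vehicle. No defining marker was under the floor on all arrays. The groups stayed apart with any 1 marker left out, at 29756 and 27078 against 48235 and 53651 without Cd14. Neutrophil markers summed to 10649 and 8276 against 131318 and 196158, a gap carried by S100a8 and S100a9, the 2 of 8 tested that passed in limma. The other 7 markers summed to 8958 and 5194 against 9890 and 8707, with overlap. B cell markers summed to 3240 and 3368 against 4814 and 4586, and without Cd79a to 2834 and 3054 against 3499 and 2977, with overlap. T cell markers summed to 4662 and 3849 against 4768 and 5484, with Cd8b1 under the floor on all 4 arrays, and overlapped without Cd3g, without Cd4 or without Thy1. Singly they went both ways. Of the 9 measured, 3 were lower with no overlap (Cd3g, Cd4 and Thy1), where 21% of all genes were. Another 3 were higher (Cd3e, Cd8a and Cd8b1), where 18% were, and 3 overlapped. Only Cd4 and Thy1 were bright enough to test. NK cell markers summed to 3155 and 2453 against 2195 and 2011, but 4 of 6 overlapped, and without Prf1 the sums were 2316 and 1545 against 1806 and 1827; they overlapped without Gzmb too. Erythrocyte markers overlapped in sum, at 507139 and 669608 against 563914 and 658396, which Hba-a1 dominates. Hbb-b2, Alas2 and Bpgm were lower with no overlap, where 21% of all genes were. All 3 had an unadjusted p under 0.05 in limma, where 5.93% of all genes were lower at that p. Of the 5 erythrocyte markers 0 passed the threshold. Endothelial markers summed to 28045 and 35285 against 33127 and 41554, with overlap, and Eng was the largest term. Singly, 5 of the 9 were lower with no overlap, where 21% of all genes were. Cldn5 alone was higher with no overlap (log2 fold change 1.45), 3 overlapped, and 0 passed in limma. The 11 antiviral effectors summed to 9833 and 11409 with rosiglitazone against 13696 and 17803 with vehicle, with no overlap. Ifitm3 made up most of each sum, at 5901 and 6132 against 8040 and 11111, and Ifi35 had 326 and 831 against 2214 and 1397. Singly, 5 of the 11 were lower with no overlap (21% of all genes) and 2 higher (18%), and 4 overlapped. The 3 class I chains summed to 67213 and 82173 against 76901 and 83354, with overlap. What part macrophage, neutrophil, B cell, erythrocyte, endothelial, smooth muscle or adipocyte content has in the lower sum of the antiviral effectors was not tested. The same holds for the lower values of Irf8, Irf9 and Ifi30.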

How the data were processed

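RNA from 4 aorta samples was measured on oligonucleotide arrays. The authors deposited 1 intensity per probe set and array, on a linear scale, for 12488 probe sets. Their software, background correction and scaling are not given in the sources used here. On each array the mean with 2% trimmed at each end was 1499.7. From these, 66 control probe sets were left out. Symbols came from the platform's probe table (10833 probe sets with 1 symbol, 396 with several, 1193 with none) and were looked up by identifier in a GRCm38.p6 table, with 0 changed; 0 were matched by an older alias.

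Intensities were floored at the 20th percentile (148) and put on a log2 scale. The 7134 probe sets with a mean at or above the 40th percentile (414) were fitted with limma 3.58.1 in R 4.3.3 (lmFit, eBayes with an intensity trend, residual df 2, median prior df 7.14), two-sided, with Benjamini-Hochberg adjustment over all 7134 and a threshold of 0.05. The fit was tested on simulated data. Of 4 arrays in 2 groups an exact permutation test cannot go below p = 0.333. The alternatives were 2 scalings, 2 floors, no filter, no trend, the mean over probe sets and each array left out. The members, lists and motifs were chosen with earlier results of these data known. All members may be named; from other lists, genes past the threshold or up to 5 with the smallest p and no overlap, while Ifng, Ifnb1, Ptpn6, Psmb5 and Psmb7 were named after their values were seen. The precision is limited by the number of arrays.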

Additional observations from a re-analysis of the deposited data

How the results depend on the processing

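No paired analysis was possible because the labels number the rosiglitazone arrays 1 and 2 and the vehicle arrays 3 and 4, so the groups share no number. The count of members past the threshold in limma was 0 under each alternative run with the fit, where 1 to 4 members had an unadjusted p under 0.05. The median log2 fold change of the members ran from -0.094 to -0.0044, the latter with each array centred on its median, which moved the median of all genes to 0.081. The count of probe sets past the threshold was 26. It was 0 with the floor at the 40th percentile and 0 without the filter, where 933 and 1202 had an unadjusted p under 0.05, and 7 without the trend. With 1 array left out it ran from 6, without vehicle replicate 3 or vehicle replicate 4, to 71 without rosiglitazone replicate 2; the lone array of a group was then assumed to vary like the others.

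Of the 35 measured members 18 kept the sign of their log2 fold change under each alternative that gave them a value and 17 did not; the mean over probe sets applied to only 5 genes. Among tested members, 14 reversed. Isg15 was at 0.059 with each array centred on its median, 0.092 with quantile normalization and 0.19 with the floor at the 40th percentile. Psmb8 was at 0.058 and Psmb9 at 0.048 with each array centred on its median, and Psmb9 at 0.0014 with quantile normalization. With 1 array left out, the ranges that crossed 0 were -0.56 to 0.24 for Adar, -0.19 to 0.011 for B2m, -0.090 to 0.17 for Gbp2 and -0.093 to 0.31 for Gbp3. They were -0.48 to 0.11 for H2-D1, -0.30 to 0.13 for H2-K1, -1.67 to 0.38 for Ifi204, -0.045 to 0.60 for Ifi47 and -0.73 to 0.0072 for Igtp. They were -1.18 to 1.14 for Isg15, -0.0031 to 0.27 for Psmb10, -0.49 to 0.44 for Psmb8, -0.27 to 0.20 for Psmb9 and -0.12 to 0.18 for Tap1. With each array centred on its median, Isg15, Psmb8 and Psmb9 lay above 0 but below the median of all genes, which was 0.081 there. The cause of the reversals under the other alternatives was not tested. Irf9, Irf8, Ifi35, Ifitm3, Iigp1, Tapbp, Psme1, Tap2, Socs1, Mx2, Cxcl9, Irf1, Irf7 and Ifit3 kept their sign under all alternatives run.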
